A study of Mus musculus with 15 samples.

Results

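The genes described here are 43 mouse genes that keep proteins folded: chaperones, folding enzymes and stress sensors of the endoplasmic reticulum (ER), and the heat shock chaperones of the cytosol and of mitochondria. They were chosen by gene symbol, with earlier results of these data known. Each of the 43 symbols matched 1 of the 53465 Ensembl genes in the deposited count table. They fall into 8 roles, of which 6 belong to the ER (35 genes) and 2 to the heat shock system (8 genes). The cells were bone marrow-derived macrophages (BMDMs), grown from mouse bone marrow for 7 days in DMEM with 10% FBS and 20 ng/ml M-CSF, the growth factor that turns marrow precursors into macrophages. They were then left untreated (control) or treated for 24 h with IL-4 at 10 ng/ml, with this IL-4 and IL-6 at 40 ng/ml (IL-4/IL-6), with IL-13 at 40 ng/ml, or with this IL-13 and IL-6 at 40 ng/ml (IL-13/IL-6), with 3 RNA-seq libraries in each of the 5 groups. The labels name no strain or genotype. A group with IL-6 alone was not analysed here. The study calls the replicates of its IL-4 and IL-4/IL-6 RNA-seq biological, but whether the libraries of a group came from separate mice is not given in the sources used here. The p-values therefore measure the spread between these libraries, estimated for each gene over all 5 groups together and not for the compared groups alone.

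Proteins that a cell secretes or puts in its membranes enter the ER through the Sec61 channel and fold there with the help of BiP (Hspa5), its cofactors, disulfide isomerases and lectin chaperones, while misfolded proteins are sent back to the cytosol and destroyed (ER-associated degradation, ERAD). When unfolded proteins build up, the sensors IRE1 (Ern1), ATF6 and PERK (Eif2ak3) start the unfolded protein response: IRE1 splices the Xbp1 mRNA into a form that codes for an active transcription factor, ATF6 is cut into an active transcription factor, and PERK slows translation and raises CHOP (Ddit3) and GADD34 (Ppp1r15a). A separate response, driven by the transcription factor HSF1, controls the chaperones of the cytosol and mitochondria. IL-4 and IL-13 drive macrophages toward the M2 state through STAT6, and IL-6 acts mainly through STAT3. Counts per gene do not separate the spliced from the unspliced form of Xbp1, and none of these values measures splicing, cleavage or phosphorylation.

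The promoters of many of these genes carry the sequences that the 2 responses use, and the sites are shown so that the changes can be read beside them. RefSeq windows of 300 bases (GRCm38.p6, 250 bases before to 50 after the start site) were present for 35 of the 43 genes. An ER stress response element (ERSE) was searched as CCAAT and CCACG with 9 bases of any kind between them, a second form (ERSE-II) as ATTGG and CCACG with 1 base between them, an unfolded protein response element (UPRE) as TGACGTGG, a heat shock element (HSE) as GAA, TTC and GAA with 2 bases between each, and an ATF4-type element (CARE) as TGATGCAA, each on both strands. The ERSE letters were found in 9 of the 35 genes, against 0.137% of all 27025 genes with a window. The ERSE-II letters were found in 2 genes (0.0444% of all genes) and the HSE letters in 3 (0.662%). UPRE letters occurred in Txndc5 (0.714% of all genes) and CARE letters in Herpud1 (1.03%). The ERSE, ERSE-II and HSE sites, which recur among these genes, and the single UPRE and CARE sites are printed with 8 bases on each side, 5′ to 3′ on the strand that carries the letters, with the letters that were matched in capitals. A match is a description of the sequence and not a measured binding site. The 9 ERSE genes code for ER chaperones, lectin chaperones, a disulfide isomerase and ERAD proteins, and Hsp90b1 has 2 matches.
Hspa5 chr2:34772017-34772051 (+ strand): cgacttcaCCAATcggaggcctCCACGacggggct
Hsp90b1 chr10:86705525-86705559 (+ strand): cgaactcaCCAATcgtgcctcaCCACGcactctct
Hsp90b1 chr10:86705630-86705664 (- strand): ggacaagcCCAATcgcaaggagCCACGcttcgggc
Dnajc3 chr14:118937819-118937853 (+ strand): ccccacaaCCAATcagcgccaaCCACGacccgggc
Creld2 chr15:88819512-88819546 (- strand): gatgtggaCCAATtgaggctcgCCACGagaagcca
Pdia6 chr12:17266483-17266517 (+ strand): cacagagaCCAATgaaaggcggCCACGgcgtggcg
Calr chr8:84847067-84847101 (+ strand): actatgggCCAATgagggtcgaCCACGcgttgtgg
Canx chr11:50325792-50325826 (- strand): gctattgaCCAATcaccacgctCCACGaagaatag
Syvn1 chr19:6046524-6046558 (+ strand): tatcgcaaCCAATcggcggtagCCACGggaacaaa
Derl3 chr10:75893234-75893268 (- strand): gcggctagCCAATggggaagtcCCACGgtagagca
The ERSE-II sites were in Herpud1 and Dnajb11, and the HSE sites in Hsph1 and in the stretch that Hspd1 and Hspe1, which are transcribed away from each other, share. That stretch holds 2 overlapping matches on opposite strands, of which 1 is printed. The sites of Dnajb11 and Hsph1 lie just after the start site, and all others before it.
Herpud1 chr8:94386369-94386395 (+ strand): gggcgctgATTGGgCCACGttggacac
Dnajb11 chr16:22857844-22857870 (+ strand): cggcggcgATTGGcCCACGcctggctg
Hsph1 chr5:149636280-149636308 (+ strand): actgaggaGAActTTCcaGAAtctgcagc
Hspe1 chr1:55088056-55088084 (+ strand): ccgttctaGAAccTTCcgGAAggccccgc
Txndc5 chr13:38528037-38528060 (- strand): ctcgccgcTGACGTGGcgctagcc
Herpud1 chr8:94386309-94386332 (- strand): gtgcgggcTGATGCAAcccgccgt
For 3 genes whose changes differ in pattern, the 250 bases before the start site are given on the strand of the gene. Hspa5 changed with every cytokine and holds 1 ERSE match. Herpud1 fell with IL-4 and rose with added IL-6, and its capitals mark the CARE letters (read here as their reverse complement) and then the ERSE-II letters. Pdia4, with the largest response to added IL-6 in the IL-4 cells, has none of the 5 sets of letters in its 300 bases.
Hspa5 chr2:34771840-34772089 (+ strand): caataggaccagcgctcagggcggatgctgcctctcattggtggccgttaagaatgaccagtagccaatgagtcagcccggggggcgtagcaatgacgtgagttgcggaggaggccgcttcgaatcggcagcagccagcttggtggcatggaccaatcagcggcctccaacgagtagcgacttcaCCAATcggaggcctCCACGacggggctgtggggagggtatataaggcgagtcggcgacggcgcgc
Herpud1 chr8:94386179-94386428 (+ strand): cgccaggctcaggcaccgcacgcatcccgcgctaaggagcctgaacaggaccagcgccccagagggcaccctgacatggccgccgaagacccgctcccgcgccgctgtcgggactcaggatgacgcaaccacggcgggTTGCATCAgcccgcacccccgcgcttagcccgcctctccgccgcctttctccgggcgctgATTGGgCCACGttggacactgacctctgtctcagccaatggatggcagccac
Pdia4 chr6:47813513-47813762 (- strand): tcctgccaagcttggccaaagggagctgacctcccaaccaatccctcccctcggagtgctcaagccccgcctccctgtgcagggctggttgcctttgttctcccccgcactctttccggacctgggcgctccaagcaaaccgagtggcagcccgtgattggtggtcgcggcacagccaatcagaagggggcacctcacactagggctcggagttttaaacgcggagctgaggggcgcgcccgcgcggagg

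The libraries held between 17001352 and 18918686 counts. Replicates varied, as a biological coefficient of variation, by 4.48% in the control, 4.54% in IL-4, 14.8% in IL-4/IL-6, 10.9% in IL-13 and 7.39% in IL-13/IL-6. The IL-4/IL-6 replicate 2 and the IL-13 replicate 1 stood apart from the other libraries of their groups, with a chi-square per gene of 23.8 and 42.2, and of 20.6 and 15.9, where other pairs had between 2.6 and 7.38. Of the 43 genes, 27 had their highest value of the group in the IL-4/IL-6 replicate 2 and 12 their lowest. The same counts were not made over all genes. The calls of the 4 main comparisons that were lost without either library are named beside the genes. All 10 macrophage markers were detected, and their summed level differed between groups, with 19100 to 21300 CPM (counts relative to library size, with TMM scaling) in the control, 14600 to 15100 with IL-4, 11100 to 13000 with IL-4/IL-6, 17400 to 20200 with IL-13 and 14300 to 15300 with IL-13/IL-6. Most of this sum was Lyz2, with a mean of 14900 CPM in the control and 9700 with IL-4. Of the 10 markers, 2 rose and 6 fell with IL-4 versus control, 4 rose and 4 fell with IL-13, 3 rose and 7 fell in IL-4/IL-6 versus IL-4, and 4 rose and 2 fell in IL-13/IL-6 versus IL-13. Markers of granulocytes and their precursors (12 genes) summed to between 520 and 612 CPM in the control libraries and between 11.7 and 26.7 in all others. The same direction was seen for mast cells, basophils and eosinophils (9 genes, 42.4 to 48.4 against 0.921 to 7.81), B and plasma cells (9 genes, 89.9 to 102 against 8.81 to 47.8, mostly Sdc1), T and NK cells (8 genes, 24.5 to 30.2, nearly all Cd4, against 0 to 1.1, with Cd3e at 0 throughout), stromal cells (9 genes, 27.3 to 32.9 against 0.928 to 8.49) and dendritic cells (7 genes, 29.3 to 31.7 against 0.412 to 1.34). When IL-6 was added to either cytokine, few of these markers changed. In the IL-4 arm, 1 of 11 tested granulocyte markers fell (Mmp8, mean 23.9 to 10.3 CPM, at 22.6 in the control), as did 2 of 8 markers of mast cells, basophils and eosinophils (Siglecf, 4.7 to 0.828 CPM, and Gata2, 1.83 to 0.211 CPM) and 1 of 7 of B and plasma cells (Sdc1, 29.6 to 7.46 CPM), while 1 of 5 stromal markers rose (Pecam1, 1.77 to 7.25 CPM, with Col1a1 and Col3a1 at 0 in both groups). The counts in the IL-13 arm were 1, 1 and 1 lower and 1 higher. The summed T and NK markers were also lower with IL-6 in both arms, without overlap, at levels of 0 to 1.1 CPM in these groups. The part of these lists in the results was not tested. In bulk RNA, fewer cells of a type and less RNA per cell cannot be told apart.

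With IL-4, all 8 heat shock genes rose, while of the 35 ER genes 15 rose and 10 fell. Adding IL-6 raised 22 of the 35 ER genes and 3 of the 8 heat shock genes in the IL-4 arm, and 25 of 35 and 0 of 8 in the IL-13 arm. The 0 of 8 depended on the IL-13 replicate 1, without which Hspa8 and Hspe1 were also called higher in that arm. In the IL-4 arm, Hspa8 and Hspe1 were not called without the IL-4/IL-6 replicate 2, while Hsph1 was. The ER and heat shock genes were not tested against each other. All 43 genes passed the filter on low counts, and calls are those with an adjusted p under 0.05 in edgeR over 13938 genes. In IL-4 versus control, 23 of the 43 genes were higher and 10 lower, against 32.1% and 35.9% of all genes tested. With IL-13 versus control, 22 were higher and 7 lower (29.0% and 31.1% of all genes). In IL-4/IL-6 versus IL-4, 25 were higher and 0 lower (20.7% and 18.7% of all genes), and in IL-13/IL-6 versus IL-13 likewise 25 were higher and 0 lower (12.1% and 13.5%). The combined treatments versus control gave 31 higher and 5 lower for IL-4/IL-6 (35.4% and 37.5% of all genes) and 30 higher and 4 lower for IL-13/IL-6 (31.9% and 32.1%). These comparisons share libraries, so their counts are not independent of each other. The median log2 change of the 35 ER genes was 0.12 in IL-4 versus control and 0.26 in IL-4/IL-6 versus IL-4, and that of the 8 heat shock genes was 1.56 and 0.05, beside -0.05 and 0.04 over all genes. In the IL-13 arm the medians were 0.01 and 0.31 for the ER genes and 1.28 and 0.08 for the heat shock genes, beside -0.02 and 0.01 over all genes. Without the IL-4/IL-6 replicate 2, 22 genes were higher and 0 lower in IL-4/IL-6 versus IL-4, and without the IL-13 replicate 1, 26 were higher and 0 lower in IL-13/IL-6 versus IL-13.

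**Figure D1:**
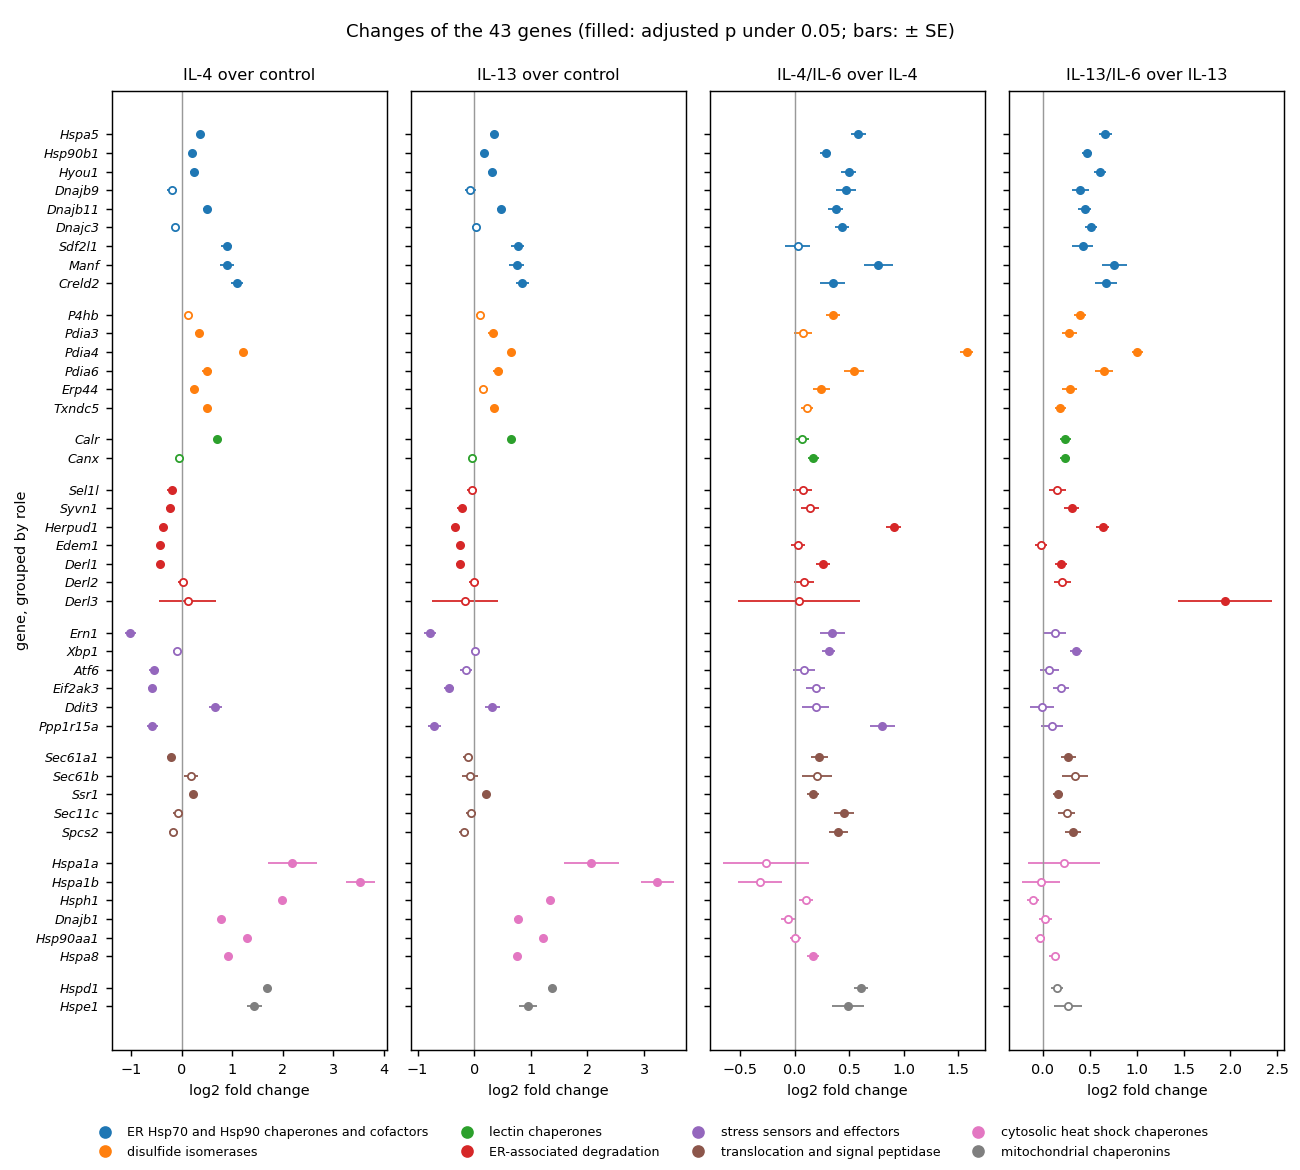
Log2 fold change (x axis, with its own scale in each panel) of each of the 43 genes (y axis, grouped and colored by role) in the 4 main comparisons, with bars for ± SE and filled points for an adjusted p under 0.05. The heat shock genes at the bottom lie to the right of 0 in both comparisons to the control, and ER chaperones at the top lie to the right of 0 where IL-6 was added.

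The mean level of a gene over its 3 libraries, in TMM-scaled CPM, was highest in IL-13/IL-6 for 21 of the 43 genes, in IL-4/IL-6 for 16, in the control for 5, in IL-4 for 1 and in IL-13 for 0. It was lowest in the control for 25 genes, in IL-4 for 14 and in IL-13 for 4. The highest and lowest groups were not counted over all genes, so these counts are not read as particular to the 43. In the deposited FPKM the order of the 5 groups was another for 23 of the 43 genes, and the highest group was the same for 38. The exons of 15 of the 43 genes overlap another gene on the opposite strand, among them Manf, Pdia3, Pdia6, Ppp1r15a and Ddit3, and those of 5, among them Manf (Rbm15b), overlap one on the same strand, so that reads may have been shared. Measured per length, as the mean FPKM over the 15 libraries, the levels ran from 665 for Calr, 647 for Hspa8 and 384 for Hspa5 down to 0.682 for Hspa1a and 0.455 for Derl3. The summed level of the 9 ER chaperones and cofactors was between 2225 and 2375 CPM for the control, between 2845 and 3072 for IL-4, between 3898 and 4423 for IL-4/IL-6, between 2859 and 3026 for IL-13 and between 4222 and 4493 for IL-13/IL-6. That of the 6 cytosolic heat shock chaperones was between 1895 and 1982 CPM in the control and between 3379 and 4404 in the other libraries.

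**Figure D2:**
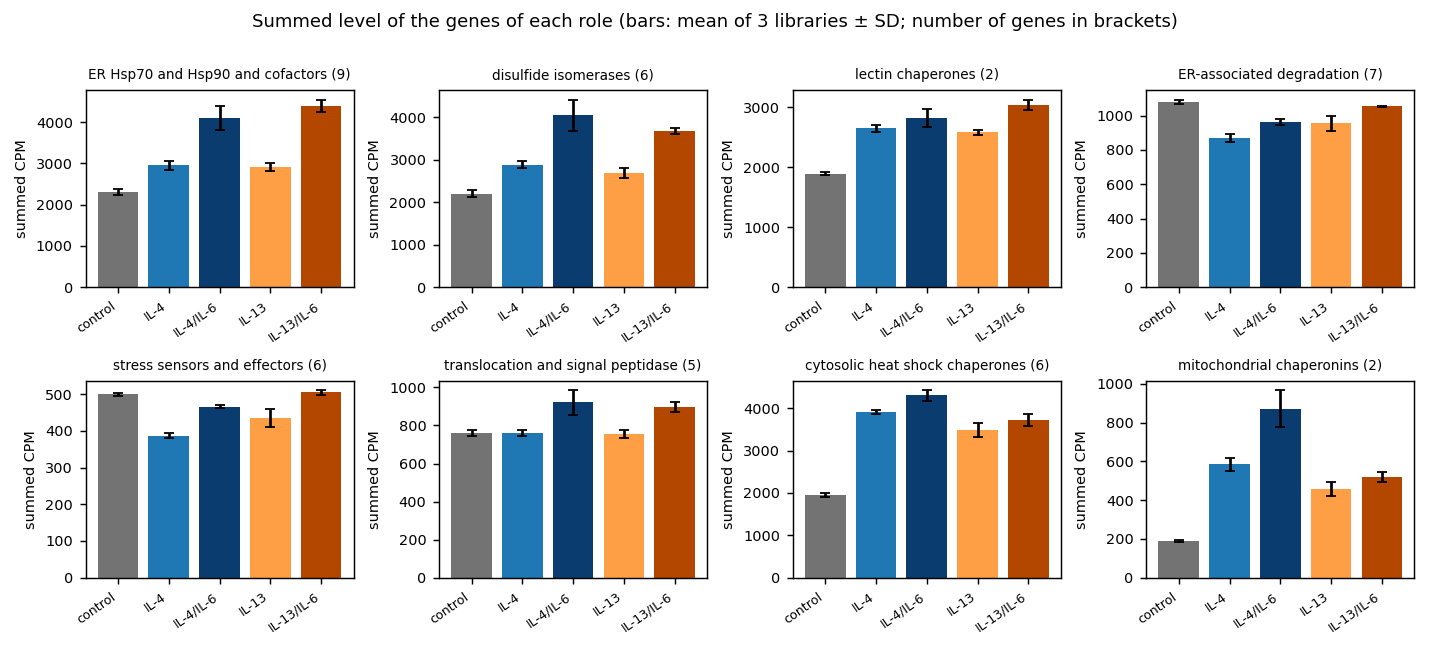
Summed TMM-scaled CPM (y axis, from 0) of the genes of each of the 8 roles in the 5 groups (x axis), as the mean of 3 libraries with ± SD. The ER chaperones and disulfide isomerases are highest in both groups with IL-6, while the cytosolic heat shock chaperones are high in all 4 cytokine groups.

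The ER Hsp70 and Hsp90 chaperones and their cofactors rose in 7 of 9 cases with IL-4, beside 32.1% of all genes, and in 8 of 9 again when IL-6 was added to it, beside 20.7%. BiP (Hspa5), the main Hsp70 of the ER, was at 1097, 1133 and 1044 CPM in the control libraries, at 1404, 1330 and 1476 in IL-4, at 2011, 2308 and 1977 in IL-4/IL-6, at 1469, 1355 and 1346 in IL-13 and at 2244, 2104 and 2270 in IL-13/IL-6. The control, the groups with IL-4 or IL-13, and the groups with IL-6 formed 3 levels that did not overlap. Its fold was 1.29 with IL-4 (log2 0.36, SE 0.07, adjusted p = 0.00017) and 1.5 when IL-6 was added to it (log2 0.58, SE 0.07, adjusted p = 2.28e-06). In the IL-13 arm the folds were 1.27 (adjusted p = 0.000299) and 1.59 (adjusted p = 8.04e-07). Hsp90b1 (GRP94), the Hsp90 of the ER, rose 1.15-fold with IL-4 and 1.22-fold more with IL-6, and Hyou1, a large Hsp70 that exchanges the nucleotide of BiP, rose 1.18-fold and then 1.41-fold. For Hsp90b1, 10.0% of the 50-base words of its transcripts occur in other genes, so its counts are less certain.

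Of these 9 genes, Creld2, Manf and Sdf2l1 changed most with IL-4. Manf, a small ER protein that is released under stress, was at 59.6, 57.7 and 56.3 CPM in the control, at 104.4, 107.1 and 111.1 in IL-4, at 171.0, 233.4 and 144.2 in IL-4/IL-6, at 111.4, 90.8 and 90.3 in IL-13 and at 181.3, 147.3 and 168.0 in IL-13/IL-6. All IL-6 libraries lay above all libraries without IL-6. The fold of Manf was 1.86 in IL-4 versus control (adjusted p = 1.75e-05) and 1.70 in IL-4/IL-6 versus IL-4 (log2 0.77, SE 0.13, adjusted p = 0.000147), so that IL-4/IL-6 stood 3.16-fold above the control. Creld2, an ER protein with disulfide isomerase activity, was at 41.5, 45.7 and 40.3 CPM in the control, at 88.4, 89.2 and 96.0 in IL-4, at 105.7, 142.4 and 100 in IL-4/IL-6, at 86.9, 68.5 and 74.7 in IL-13 and at 126.1, 110.1 and 129.8 in IL-13/IL-6. Creld2 rose 2.15-fold with IL-4 (log2 1.10, SE 0.12, adjusted p = 3.96e-07), 1.81-fold with IL-13 and 1.59-fold from IL-13 to IL-13/IL-6. Its rise from IL-4 to IL-4/IL-6 (1.27-fold, adjusted p = 0.0247) was not called without replicate 2 of IL-4/IL-6, where the log2 change was 0.16 (adjusted p = 0.19). This call was also lost without the IL-4 replicate 1 or the IL-4 replicate 2. The same held under upper-quartile normalization, library totals only and a fit of only the groups compared.

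Sdf2l1, which binds BiP and its J proteins, rose 1.85-fold with IL-4 and 1.70-fold with IL-13. With IL-6 it rose 1.34-fold in the IL-13 arm (adjusted p = 0.00939), while its fold in the IL-4 arm was 1.02 (log2 0.03, 95% interval -0.20 to 0.25, adjusted p = 0.881). The J proteins hand unfolded chains to BiP. Dnajb11 rose 1.41-fold with IL-4 and 1.30-fold further with IL-6. Dnajb9 and Dnajc3 did not pass the test in either comparison with IL-4 or IL-13 alone (folds between 0.877 and 1.02), and both rose with IL-6, Dnajb9 by 1.38-fold and 1.32-fold and Dnajc3 by 1.35-fold and 1.43-fold in the IL-4 and IL-13 arms.

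**Figure D3:**
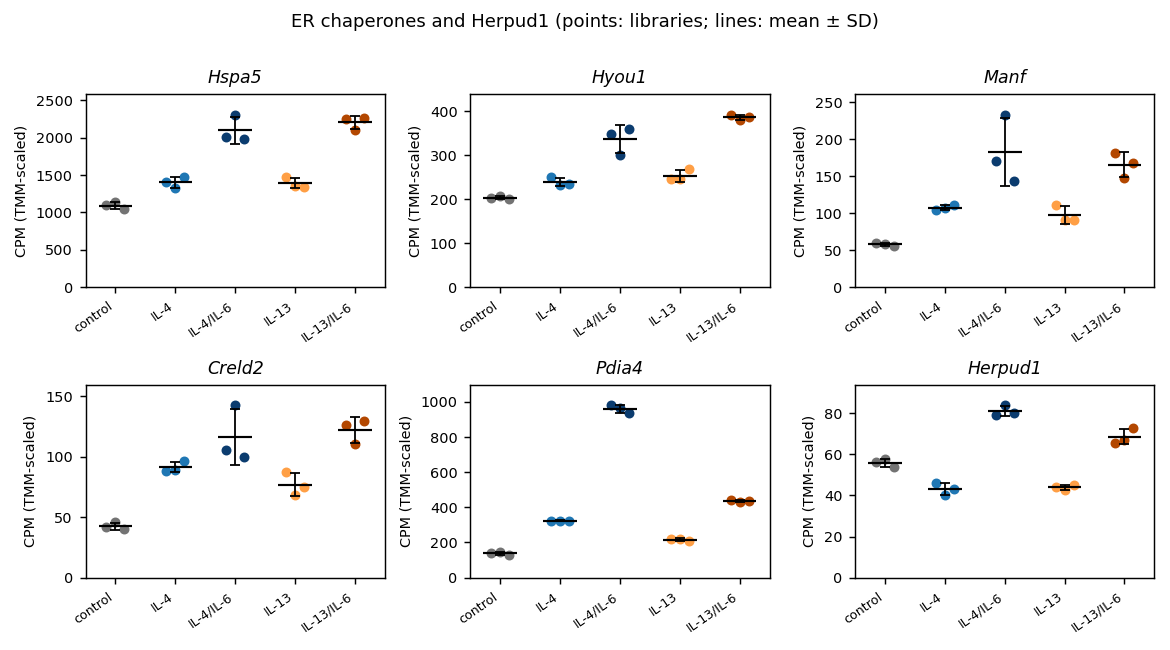
TMM-scaled CPM (y axis, from 0) of 6 ER genes in each library (points) of the 5 groups (x axis), with the mean ± SD of 3 libraries. Pdia4 reaches its highest values in IL-4/IL-6 (936.2 to 980.8 CPM), and Herpud1 is the gene that lies below the control without IL-6 and above it with IL-6.

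Disulfide isomerases rose in 5 of 6 cases with IL-4 and in 4 of 6 with IL-13, beside 32.1% and 29.0% of all genes, and adding IL-6 raised 4 of 6 in the IL-4 arm and 6 of 6 in the IL-13 arm, beside 20.7% and 12.1%. Of the 6 calls with IL-6 in the IL-13 arm, those of Txndc5, Pdia3 and Erp44 were lost under 8, 3 and 2 alternatives. Pdia4, an isomerase that works with BiP, had the largest change of the ER genes with IL-4 and again when IL-6 was added to IL-4. It was at 139.2, 147.6 and 129.3 CPM in the control, at 324.5, 319.7 and 324.6 in IL-4, at 980.8, 967.8 and 936.2 in IL-4/IL-6, at 221.5, 219.4 and 210.2 in IL-13 and at 443.7, 430.7 and 433.8 in IL-13/IL-6. No 2 of the 5 groups overlapped. The fold was 2.33 with IL-4 (log2 1.22, SE 0.06, adjusted p = 9.32e-12), 1.56 with IL-13 (log2 0.65, SE 0.06, adjusted p = 4.06e-08), 2.98 from IL-4 to IL-4/IL-6 (log2 1.57, SE 0.06, adjusted p = 7.26e-13) and 2.01 from IL-13 to IL-13/IL-6 (log2 1.01, SE 0.06, adjusted p = 4.03e-10). IL-4/IL-6 stood 6.93-fold above the control. Pdia6, which tempers IRE1, rose 1.42-fold with IL-4 and 1.46-fold more with IL-6. P4hb, the classic protein disulfide isomerase, passed the test only where IL-6 was added (1.27-fold and 1.32-fold over IL-4 and IL-13) or against the control (1.39-fold and 1.41-fold with the combined treatments), and it was at 1.10-fold with IL-4 alone (adjusted p = 0.0749), a change that was called under 10 alternatives. Pdia3, the partner of the lectin chaperones, rose 1.27-fold with IL-4 and was then at 1.05-fold with added IL-6 (95% interval of the log2 change -0.08 to 0.23, adjusted p = 0.487).

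Erp44, which retrieves escaped ER proteins, rose 1.18-fold with IL-4 and 1.18-fold from IL-4 to IL-4/IL-6. The second call was lost under 9 alternatives, among them upper-quartile normalization, library totals only and the omission of any IL-4 library. It was also lost without replicate 2 of IL-4/IL-6 (log2 0.14, adjusted p = 0.121). Txndc5, the isomerase with UPRE letters, rose 1.42-fold with IL-4 and 1.27-fold with IL-13. The lectin chaperones calreticulin (Calr) and calnexin (Canx) hold glycoproteins during folding. Calr rose 1.63-fold with IL-4 (log2 0.71, SE 0.06, adjusted p = 1.5e-08) and 1.58-fold with IL-13, and with IL-6 its fold was 1.05 in the IL-4 arm (95% interval of the log2 change -0.05 to 0.18, adjusted p = 0.386) and 1.18 in the IL-13 arm (adjusted p = 0.00582). Canx, the membrane-bound form, was at 0.959-fold with IL-4 (adjusted p = 0.31) and rose 1.13-fold and 1.18-fold when IL-6 was added to IL-4 and IL-13. The call in the IL-4 arm was lost under 8 alternatives, among them upper-quartile normalization (log2 0.08, adjusted p = 0.211), library totals only (0.07, adjusted p = 0.318) and the omission of any IL-4 library.

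ERAD genes fell with IL-4 in 5 of 7 cases and with IL-13 in 4 of 7, beside 35.9% and 31.1% of all genes, and none of the 7 rose with either. The calls of Sel1l and Syvn1 among the 5 were lost under several alternatives. Herpud1, which assembles the degradation complex, was at 56.0, 57.9 and 53.9 CPM in the control, at 46.0, 40.3 and 43 in IL-4, at 79.1, 83.8 and 79.9 in IL-4/IL-6, at 44.2, 42.7 and 44.9 in IL-13 and at 65.6, 67.2 and 72.6 in IL-13/IL-6. It lay below the control with IL-4 or IL-13 and above it with IL-6, and these levels did not overlap. The log2 change of Herpud1 was -0.38 with IL-4 (SE 0.07, adjusted p = 0.000122), -0.35 with IL-13, 0.91 from IL-4 to IL-4/IL-6 (SE 0.07, adjusted p = 7.94e-09) and 0.64 from IL-13 to IL-13/IL-6 (SE 0.07, adjusted p = 1.23e-06). Edem1, which picks out misfolded glycoproteins, fell to 0.745-fold with IL-4 and 0.845-fold with IL-13, and with IL-6 its folds were 1.02 and 0.988 (adjusted p = 0.746 and 0.893). Derl1, a part of the exit channel, fell to 0.745-fold with IL-4 and rose 1.19-fold with added IL-6. Its rise in IL-13/IL-6 versus IL-13 (1.14-fold, adjusted p = 0.0363) was 0.19 on the log2 scale without the IL-13 replicate 1 (adjusted p = 0.0562). This call was lost under 16 alternatives, among them upper-quartile normalization, a replicate block and the omission of any IL-13 or IL-13/IL-6 library.

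The ubiquitin ligase Syvn1 (HRD1) fell to 0.849-fold with IL-4, and its partner Sel1l to 0.870-fold (adjusted p = 0.0497). The call of Sel1l was lost under 16 of the alternatives, among them the omission of each control library, and that of Syvn1 under 8. Without the IL-13 replicate 1, the log2 change of Sel1l with IL-4 was -0.16 (adjusted p = 0.0714) and that of Syvn1 with IL-13 was -0.19 (adjusted p = 0.0923). Derl2 passed the test in none of the 7 comparisons between groups. Derl3, a Derlin found mostly in secretory cells, was nearly absent, with 6, 15 and 12 counts in the control libraries, 5, 15 and 16 with IL-4, 17, 12 and 6 with IL-4/IL-6, 16, 11 and 3 with IL-13 and 50, 34 and 28 with IL-13/IL-6. Only IL-13/IL-6 stood above the rest, at 2.1 ± 0.7 CPM (SD, n = 3) against 0.54 ± 0.36 in IL-13 (3.86-fold, log2 1.94, SE 0.50, adjusted p = 0.00738). The difference between the IL-6 effects on Derl3 in the IL-13 and IL-4 arms was 1.90 on the log2 scale (SE 0.76, adjusted p = 0.169).

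Of the 6 stress sensor and effector genes, 4 fell with IL-4 and 3 with IL-13, beside 35.9% and 31.1% of all genes, and 1 rose with each. Ern1, which codes for the kinase and RNase IRE1, was at 89.2, 90.6 and 96.4 CPM in the control, at 46.0, 47.5 and 43 in IL-4, at 59.9, 47.3 and 65.9 in IL-4/IL-6, at 44.7, 57.4 and 58.7 in IL-13 and at 56.6, 64.0 and 55.3 in IL-13/IL-6. All 12 cytokine libraries lay below the 3 control libraries. The log2 change of Ern1 was -1.02 with IL-4 (SE 0.11, adjusted p = 5.73e-07), -0.78 with IL-13 (SE 0.11, adjusted p = 1.43e-05) and 0.34 from IL-4 to IL-4/IL-6 (adjusted p = 0.0244), where the groups overlapped and the call was lost under 8 alternatives. Those 8 included the omission of any IL-4 library or of the IL-4/IL-6 replicate 1 or 3.

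Xbp1, the mRNA that IRE1 splices, was at 191.3, 197.1 and 188.9 CPM in the control, at 179.9, 175.6 and 182.8 in IL-4, at 212.8, 242.0 and 212.6 in IL-4/IL-6, at 195.2, 189.9 and 196.5 in IL-13 and at 260.4, 239.5 and 242.9 in IL-13/IL-6. It was highest with IL-6 in both arms, and the control lay between IL-4 and IL-4/IL-6. Xbp1 rose 1.24-fold from IL-4 to IL-4/IL-6 (log2 0.31, SE 0.06, adjusted p = 0.000581) and 1.28-fold from IL-13 to IL-13/IL-6 (log2 0.35, SE 0.06, adjusted p = 0.000281), and its change with IL-4 alone was -0.10 (adjusted p = 0.156).

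Atf6, the membrane-bound transcription factor, was at 135.7, 128.6 and 135.6 CPM in the control, at 92.4, 89.7 and 91.2 in IL-4, at 102.2, 78.9 and 108.8 in IL-4/IL-6, at 101.8, 131.1 and 129.2 in IL-13 and at 127.8, 126.9 and 125.6 in IL-13/IL-6. It was low in both groups with IL-4 and near the control in both with IL-13, apart from the IL-13 replicate 1. Atf6 fell to 0.683-fold with IL-4 (log2 -0.55, SE 0.10, adjusted p = 0.000162), and its log2 change with IL-13 was -0.14 (adjusted p = 0.237). Eif2ak3 (PERK) was at 41.2, 45.6 and 42.0 CPM in the control, at 28.4, 26.4 and 31.2 in IL-4, at 33.6, 31.4 and 33.2 in IL-4/IL-6, at 28.2, 34.1 and 32.5 in IL-13 and at 34.3, 36.4 and 37.4 in IL-13/IL-6. All cytokine libraries lay below the control libraries, and the fall was to 0.667-fold with IL-4 (adjusted p = 1.17e-05) and 0.735-fold with IL-13 (adjusted p = 0.00023).

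The PERK effectors CHOP and GADD34 moved in opposite directions with IL-4. Ddit3 (CHOP), a transcription factor of prolonged stress, was at 16.6, 17.3 and 20.1 CPM in the control, at 27.8, 28 and 29.7 in IL-4, at 30.7, 40.1 and 26.9 in IL-4/IL-6, at 23.6, 20.2 and 23.6 in IL-13 and at 21.2, 20.8 and 24.9 in IL-13/IL-6. It was higher in every IL-4 and IL-4/IL-6 library than in any control library, while IL-13 and IL-13/IL-6 lay close above the control in CPM and overlapped it in FPKM. Ddit3 rose 1.58-fold with IL-4 (log2 0.66, SE 0.13, adjusted p = 0.000239) and 1.25-fold with IL-13 (adjusted p = 0.0437, lost under 7 alternatives, with a log2 change of 0.32 and an adjusted p of 0.0694 without the IL-13 replicate 1), and it did not pass the test when IL-6 was added (folds of 1.14 and 0.993). Its exons overlap Mars and Gm4189 on the opposite strand and a second gene ID of the same symbol, and whether the counting used strand is not given in the sources used here. Ppp1r15a (GADD34), which restores translation, was at 23.0, 19.8 and 20.3 CPM in the control, at 13.3, 13.3 and 15.7 in IL-4, at 23.7, 25.7 and 24.4 in IL-4/IL-6, at 14.6, 11 and 13.1 in IL-13 and at 12.3, 14.5 and 14.7 in IL-13/IL-6. IL-4/IL-6 was the only cytokine group at or above the control. The fall was to 0.670-fold with IL-4 (adjusted p = 0.000259) and 0.614-fold with IL-13 (adjusted p = 4.94e-05), and IL-6 raised it 1.74-fold in the IL-4 arm (log2 0.80, SE 0.11, adjusted p = 1.86e-05) against 1.07-fold in the IL-13 arm (adjusted p = 0.619).

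**Figure D4:**
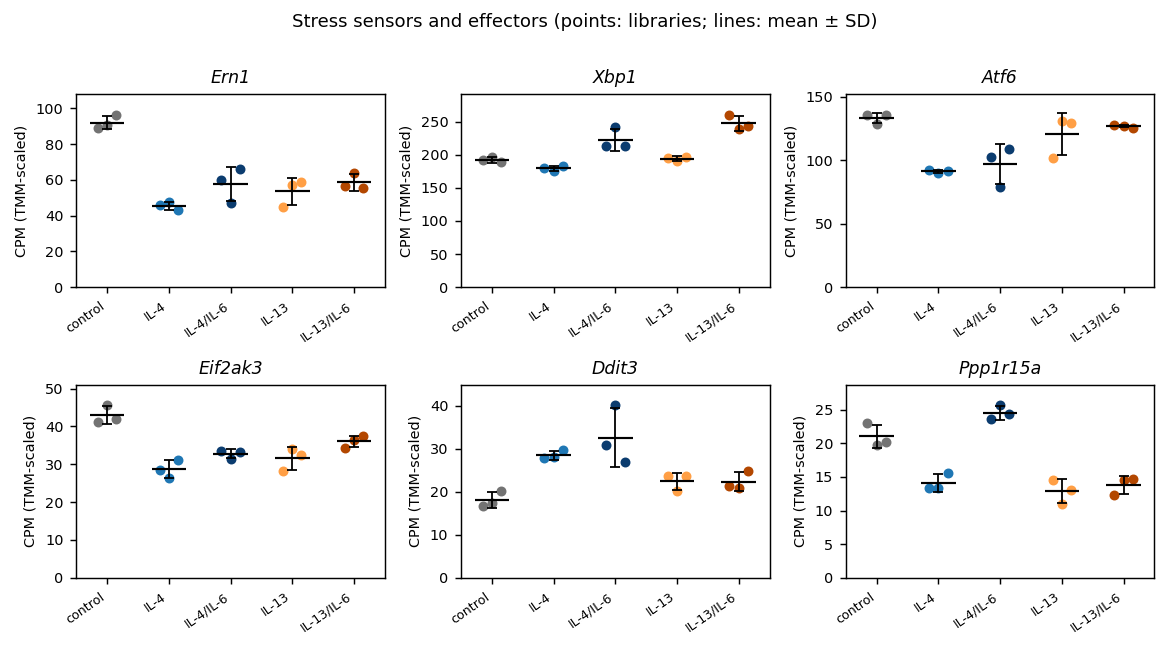
TMM-scaled CPM (y axis, from 0) of the 6 stress sensors and effectors in each library (points) of the 5 groups (x axis), with the mean ± SD of 3 libraries. Ern1 and Eif2ak3 lie below the control in all cytokine groups, Ddit3 lies above it, with IL-13 and IL-13/IL-6 close to it, and Ppp1r15a returns to the control level in IL-4/IL-6 only.

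Of the 5 genes of ER entry, 4 rose when IL-6 was added to IL-4 and 3 when it was added to IL-13, beside 20.7% and 12.1% of all genes, and the calls of Ssr1 and Sec61a1 were lost under several alternatives in both arms. Sec11c, a catalytic subunit of signal peptidase, rose 1.37-fold from IL-4 to IL-4/IL-6 (adjusted p = 0.000798), and Spcs2, another subunit, rose 1.32-fold (adjusted p = 0.0014) and 1.25-fold in the IL-13 arm (adjusted p = 0.0112). Ssr1, a part of the translocon-associated complex, rose 1.17-fold with IL-4 and 1.16-fold with IL-13, and by 0.17 and 0.16 on the log2 scale when IL-6 was added to IL-4 and IL-13, where the second call was lost under 18 alternatives, with 0.14 (adjusted p = 0.0831) without the IL-13 replicate 1. Without replicate 2 of IL-4/IL-6, the log2 change of Ssr1 from IL-4 to IL-4/IL-6 was 0.11 (adjusted p = 0.0854). Sec61a1, the channel itself, fell to 0.865-fold with IL-4 and rose 1.17-fold with added IL-6, and these calls were lost under 11 and 16 alternatives. Without the IL-13 replicate 1 its log2 changes were -0.17 (adjusted p = 0.0737) and 0.21 (adjusted p = 0.0507), and the rise in IL-13/IL-6 versus IL-13 (1.21-fold) was 0.23 (adjusted p = 0.079). Sec61b, a small channel subunit, did not pass in any of the 4 main comparisons. In Sec61a1 and Sec61b, 14.6% and 15.3% of the 50-base words occur in other genes, so their counts are less certain.

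The cytosolic heat shock chaperones rose in 6 of 6 cases with IL-4 and in 6 of 6 with IL-13, beside 32.1% and 29.0% of all genes, with median log2 changes of 1.64 and 1.28. Hsph1 (HSP110), which resets the nucleotide of Hsp70, was at 46.0, 44.8 and 43.7 CPM in the control, at 177.6, 175.4 and 182.8 in IL-4, at 195.9, 173.4 and 205.5 in IL-4/IL-6, at 108.6, 118.4 and 114.4 in IL-13 and at 105.9, 107.3 and 104.9 in IL-13/IL-6. The control, the groups with IL-13 and the groups with IL-4 did not overlap. Hsph1 rose 3.99-fold with IL-4 (log2 1.99, SE 0.07, adjusted p = 1.61e-13) and 2.54-fold with IL-13 (log2 1.34, SE 0.07, adjusted p = 2.98e-11). Hsp90aa1, the inducible cytosolic Hsp90, was at 237.7, 227.1 and 225.9 CPM in the control, at 555.9, 554.0 and 578.2 in IL-4, at 557.4, 584.4 and 553.3 in IL-4/IL-6, at 532.8, 546.3 and 524.3 in IL-13 and at 528.1, 520.5 and 518.4 in IL-13/IL-6. All cytokine groups were at nearly the same level, 2.27-fold to 2.45-fold above the control. Adding IL-6 changed the log2 level of Hsp90aa1 by 0.01 in the IL-4 arm (95% interval -0.09 to 0.11, adjusted p = 0.945) and by -0.03 in the IL-13 arm (95% interval -0.13 to 0.07, adjusted p = 0.709).

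The strongly stress-inducible Hsp70 genes Hspa1a and Hspa1b were nearly silent in the control. Hspa1b was at 0.47, 0.67 and 0.45 CPM in the control, at 5.83, 5.26 and 7.42 in IL-4, at 5.73, 3.71 and 5.36 in IL-4/IL-6, at 5.73, 4.17 and 5.15 in IL-13 and at 4.80, 3.96 and 6.12 in IL-13/IL-6. The control libraries held 9, 12 and 8 counts of it and the IL-4 libraries 109, 95 and 136. Hspa1a was at 0.10, 0.61 and 0.95 CPM in the control, at 2.46, 2.27 and 2.84 in IL-4, at 2.95, 2.48 and 0.86 in IL-4/IL-6, at 2.14, 1.97 and 2.83 in IL-13 and at 2.08, 3.47 and 2.56 in IL-13/IL-6, with 2, 11 and 17 counts in the control libraries. In Hspa1b every cytokine library lay above every control library, and the IL-4/IL-6 replicate 3 overlapped the control for Hspa1a. The rise with IL-4 was 11.7-fold for Hspa1b (log2 3.53, SE 0.28, adjusted p = 7.32e-09) and 4.54-fold for Hspa1a (log2 2.19, SE 0.48, adjusted p = 0.000661). The genes are near-identical copies, with 66.3% and 62.3% of their 50-base words found in other genes, so the split between them is uncertain. Summed, they gave a log2 change of 3.01 with IL-4 (adjusted p = 1.33e-08) and 2.77 with IL-13 (adjusted p = 6.16e-08).

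Hspa8 (HSC70), the constitutive Hsp70, was at 1647, 1675 and 1592 CPM in the control, at 3072, 3095 and 3145 in IL-4, at 3528, 3582 and 3342 in IL-4/IL-6, at 2962, 2654 and 2691 in IL-13 and at 3100, 2869 and 3103 in IL-13/IL-6. Every cytokine library was above every control library. Hspa8 rose 1.90-fold with IL-4 (adjusted p = 3.24e-10) and 1.69-fold with IL-13, and by 0.17 on the log2 scale from IL-4 to IL-4/IL-6 (adjusted p = 0.0281), a call lost under 15 alternatives, with 0.13 (adjusted p = 0.0691) without the IL-4/IL-6 replicate 2. Hspa8 was the only cytosolic heat shock gene called when IL-6 was added to IL-4, and 0 of the 6 were called when it was added to IL-13. Without the IL-4/IL-6 replicate 2, Hsph1 was called higher in the IL-4 arm (adjusted p = 0.0354). Without the IL-13 replicate 1, Hspa8 was called higher in the IL-13 arm (adjusted p = 0.0336). In Hspa8 and Hsp90aa1, 52.7% and 58.5% of the 50-base words also occur in other genes, so that reads may have been shared. Dnajb1, the J protein that feeds Hsp70, rose 1.73-fold with IL-4 and 1.71-fold with IL-13, and its log2 change with IL-6 was -0.06 in the IL-4 arm (95% interval -0.19 to 0.07) and 0.03 in the IL-13 arm (95% interval -0.10 to 0.16).

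**Figure D5:**
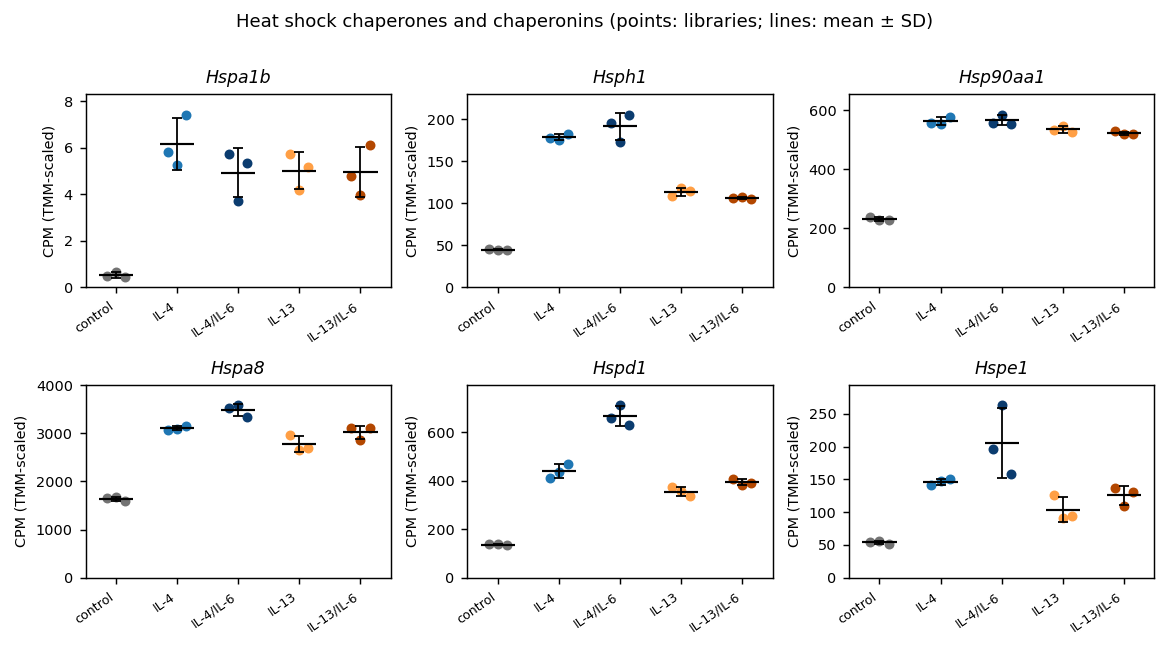
TMM-scaled CPM (y axis, from 0) of 6 heat shock genes in each library (points) of the 5 groups (x axis), with the mean ± SD of 3 libraries. Hsp90aa1 is at nearly the same level in all 4 cytokine groups, and Hspd1 has its highest values in IL-4/IL-6 (628.6 to 712.0 CPM).

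The mitochondrial chaperonin genes Hspd1 (HSP60) and Hspe1 (HSP10), whose products form a folding chamber together, rose with both cytokines. Hspd1 was at 137.4, 139.0 and 133.8 CPM in the control, at 410.8, 436.2 and 468.5 in IL-4, at 660.6, 712.0 and 628.6 in IL-4/IL-6, at 372.6, 356.5 and 335.5 in IL-13 and at 407.2, 383.8 and 392.2 in IL-13/IL-6. The control lay far below the rest and IL-4/IL-6 above the rest. The fold of Hspd1 was 3.21 with IL-4 (log2 1.68, SE 0.07, adjusted p = 1.12e-12), 2.60 with IL-13 (log2 1.38, SE 0.07, adjusted p = 2.13e-11) and 1.52 from IL-4 to IL-4/IL-6 (log2 0.61, SE 0.07, adjusted p = 7.8e-07), and it was 1.11 from IL-13 to IL-13/IL-6 (adjusted p = 0.103). Hspe1 was at 55.0, 55.7 and 50.9 CPM in the control, at 141.3, 146.7 and 150.1 in IL-4, at 195.7, 262.9 and 157.6 in IL-4/IL-6, at 125.7, 91.7 and 94.4 in IL-13 and at 136.1, 109.0 and 131.3 in IL-13/IL-6. It followed Hspd1 with a wider spread. Hspe1 rose 2.71-fold with IL-4 (log2 1.44, SE 0.15, adjusted p = 2.75e-07), 1.93-fold with IL-13 and 1.41-fold from IL-4 to IL-4/IL-6 (adjusted p = 0.0127), where the log2 change without replicate 2 of IL-4/IL-6 was 0.26 (adjusted p = 0.088). The call was also lost without the IL-4 replicate 1. The exons of Hspd1 and Hspe1 overlap on opposite strands, and 44.8% of the 50-base words of Hspd1 occur in other genes.

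IL-13 at 40 ng/ml and IL-4 at 10 ng/ml gave similar patterns in these genes, at doses that differ. In IL-13 over IL-4, 1 of the 43 genes was higher and 4 were lower, against 7.61% and 5.16% of all genes. Atf6 was the higher one (1.33-fold, adjusted p = 0.014), and this call was lost without the IL-13 replicate 2 or 3 or the IL-4 replicate 2 or 3. Pdia4 (0.672-fold, adjusted p = 2e-06), Hsph1 (0.637-fold, adjusted p = 2.06e-06), Hspd1 (0.809-fold, adjusted p = 0.00409) and Hspe1 (0.712-fold, adjusted p = 0.0371) were lower in IL-13, and the call of Hspe1 was lost without the control replicate 2, the IL-13 replicate 2 or 3, or any IL-4 library. Without the IL-13 replicate 1, 4 genes were higher and 6 lower, and without the IL-4/IL-6 replicate 2, 3 were higher and 8 lower. The effect of IL-6 differed between the arms for 3 of the 43 genes, against 7.64% of all genes in either direction. It was weaker in the IL-13 arm for Pdia4 by 0.57 (SE 0.08, adjusted p = 0.000171), for Ppp1r15a by 0.71 (SE 0.16, adjusted p = 0.0109) and for Hspd1 by 0.45 on the log2 scale (SE 0.09, adjusted p = 0.00428). Without the IL-4/IL-6 replicate 2, 7 genes differed, among them Sdf2l1 (0.54, adjusted p = 0.00969), Creld2 (0.50, adjusted p = 0.0131), Pdia3 (0.32, adjusted p = 0.0133) and Hsph1 (-0.27, adjusted p = 0.0294), of which the first 3 had the larger IL-6 effect in the IL-13 arm.

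Related genes outside the 43 were read from 6 lists, whose counts stand beside 32.1% higher and 35.9% lower of all genes with IL-4, 29.0% and 31.1% with IL-13, 20.7% and 18.7% with IL-6 in the IL-4 arm and 12.1% and 13.5% with IL-6 in the IL-13 arm. Of 41 tested other cytosolic chaperones, 30 rose and 6 fell with IL-4 (median log2 change 0.75) and 30 rose and 5 fell with IL-13 (median 0.58), beside medians of -0.05 and -0.02 over all genes. With IL-6 added to IL-4, 17 rose and 4 fell, the largest changes being rises of Chordc1 (log2 0.59), an Hsp90 cofactor, and Dnajc5 (0.57), and falls of Fkbp5 (-1.25), an Hsp90-bound isomerase, and Dnajb4 (-1.22). In the IL-13 arm 5 rose and 4 fell. Of 18 other mitochondrial chaperones and proteases, 12 rose and 1 fell with IL-4, 11 and 1 with IL-13, 7 and 1 with IL-6 in the IL-4 arm and 2 and 1 in the IL-13 arm. Atf5, a transcription factor of the mitochondrial stress response, rose by 0.98 and Hscb by 0.50 on the log2 scale with IL-6 in the IL-4 arm, and Htra2, a protease, fell by 0.47.

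Of 34 other genes of translocation, signal peptidase and ER export, 14 rose and 9 fell with IL-4, 9 and 7 with IL-13, and 21 rose and 0 fell with IL-6 in the IL-4 arm (median log2 change 0.28), with 17 and 0 in the IL-13 arm (median 0.24). The channel subunit Sec61a2 (0.77) and the export receptor subunit Mcfd2 (0.74) had the largest rises. Of 33 tested other ER folding and glycosylation genes, 12 rose and 6 fell with IL-4, 10 and 8 with IL-13, and 8 rose and 3 fell with IL-6 in each arm, so that the counts with IL-13, and with IL-6 in the IL-4 arm, were near the share of all genes that rose. The prolyl isomerase Fkbp11 (log2 1.5, from 0.94 to 2.68 CPM) and Stt3b (1.13), a catalytic subunit of oligosaccharyltransferase, rose most in the IL-4 arm, and Fkbp7 (-1.28) and Tmx4 (-0.86) fell most. Of 27 other ERAD genes, 8 rose and 11 fell with IL-4, 7 and 8 with IL-13, 10 and 1 with IL-6 in the IL-4 arm and 5 and 0 in the IL-13 arm. Sel1l3 (1.17) and the ubiquitin-conjugating Ube2j2 (0.40) rose most with IL-6 in the IL-4 arm, and March6 (-0.41), a ubiquitin ligase, fell. Of 28 tested genes of stress sensing and the integrated stress response, 13 rose and 6 fell with IL-4, 12 and 5 with IL-13, 7 and 9 with IL-6 in the IL-4 arm and 2 and 6 in the IL-13 arm. Chac1 (0.59), a target of ATF4 and CHOP, and Creb3l2 (0.57) rose, and Bcl2l11 (-1.13), which codes for the death factor BIM, and Wfs1 (-0.72) fell.

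Read beside the promoter letters, 8 of the 11 ER genes with ERSE or ERSE-II rose from IL-4 to IL-4/IL-6 (median log2 change 0.35) and 11 of 11 from IL-13 to IL-13/IL-6 (median 0.52). Among the 18 other ER genes with a window, 9 and 10 rose (medians 0.20 and 0.25). The 3 genes of the 8 heat shock members with HSE letters, Hsph1, Hspd1 and Hspe1, all rose with IL-4 and IL-13, as did the other 5 heat shock members, of which Hsp90aa1 and Hspa8 had no window to search. Outside the 43 genes, of 15 tested genes with ERSE or ERSE-II letters, 0 rose and 1 fell in IL-4/IL-6 versus IL-4, beside 20.7% and 18.7% of all genes, and 1 rose and 2 fell in IL-13/IL-6 versus IL-13, beside 12.1% and 13.5%. Of 56 tested other genes with HSE letters, 24 (42.9%) rose and 17 (30.4%) fell with IL-4, beside 32.1% and 35.9% of all genes, and 28 (50%) rose and 12 (21.4%) fell with IL-13, beside 29.0% and 31.1%. These counts were made after the changes had been seen and were not tested.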

How the data were processed

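RNA of mouse BMDMs in 5 groups of 3 libraries was sequenced by a service company. The submitters' processing notes name CASAVA, Bowtie2 2.2.3, HISAT2 2.1.0, TopHat2, DESeq2 and the build GRCm38, without their roles. The counting tool, annotation and use of strand are not given in the sources used here. The authors deposited raw counts per Ensembl gene, without normalization, and FPKM values for 26080 genes, which equal the count divided by gene length and library total (checked on 268061 values). Here, counts of all 15 libraries were fitted in edgeR 4.0.16 (R 4.3.3) with filterByExpr (minimum count 10), TMM scaling and quasi-likelihood F-tests (glmQLFit, glmQLFTest), without covariates, and p-values were adjusted by Benjamini-Hochberg over 13938 genes. SE is the log2 change divided by the square root of F. A 95% interval is 1.96 SE. Levels are TMM-scaled CPM. FPKM served to compare genes per length and to check the order of groups and, for Ddit3, their overlap. The fit was tested on simulated data. Symbols and positions came from GENCODE vM21 (GRCm38), and promoters from RefSeq (GRCm38.p6). Shared 50-base words were counted over GENCODE transcripts.

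The 43 genes, their roles and all lists were chosen with earlier results of these data known. Values per library were given for the 6 sensors and effectors and for each gene that passed the test (adjusted p below 0.05) with a log2 change beyond 1 in a main comparison. Hspa5, Manf, Herpud1 and Hspa8 were added after their values were seen. From each other list, the 2 largest changes per direction past the test in IL-4/IL-6 versus IL-4 were named. Lists were other ER folding and glycosylation, ERAD, translocation and export, stress sensing, cytosolic chaperone and mitochondrial genes, and markers of macrophages, granulocytes, mast cells with basophils and eosinophils, B, T and NK, stromal and dendritic cells (257 of 258 genes found). The alternatives were DESeq2 1.42.0, upper-quartile scaling, library totals, no filter or a stricter filter on low counts, a replicate block, only the groups compared, a sum of Hspa1a and Hspa1b, and the omission of each library.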

Additional observations from a re-analysis of the deposited data

Results flagged for a closer look

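The effect of IL-6 differed between the IL-4 and the IL-13 arm for 3 of the 43 genes, by a test of the difference itself in edgeR over all genes. Of all genes tested, 7.64% differed, so the count is close to the share over all genes. For Pdia4 the difference between the IL-6 effects, IL-13 arm minus IL-4 arm, was -0.57 on the log2 scale (adjusted p = 0.000171), from 1.57 in the IL-4 arm and 1.01 in the IL-13 arm. For Ppp1r15a it was -0.71 (adjusted p = 0.0109), from 0.80 and 0.10. For Hspd1 it was -0.45 (adjusted p = 0.00428), from 0.61 and 0.15. Each of the 3 kept an adjusted p under 0.05 in all 22 alternatives that were run.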

How the results depend on the processing

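No change of any of the 43 genes that was called turned its direction under any of the 22 alternatives. Leaving out each library in turn gave 18 to 25 genes higher in IL-4/IL-6 versus IL-4, 19 to 28 in IL-13/IL-6 versus IL-13, 0 to 4 higher and 3 to 8 lower in IL-13 over IL-4, and 3 to 7 with a different IL-6 effect in the 2 arms. In IL-13 over IL-4, DESeq2 and scaling by library totals each called 2 genes higher (1 in the report), and without a filter on low counts 7 were lower (4 in the report). Scaling by library totals called 1 gene lower in IL-4/IL-6 versus IL-4, Dnajb1, where the report has 0, and 18 higher. It moved the median log2 change of all genes in IL-4/IL-6 versus control from -0.05 to -0.19. Without a filter, 5 genes differed in the IL-6 effect (3 in the report).

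The ER genes higher in IL-4/IL-6 versus IL-4 were 22 of 35 in the report, 16 under upper-quartile scaling or library totals, and 15 when only these libraries were fitted. Of the 25 calls there, 16 held in every alternative, and those of Canx, Creld2, Derl1, Erp44, Ern1, Hspa8, Hspe1, Sec61a1 and Ssr1 did not. Of the 25 calls in IL-13/IL-6 versus IL-13, 16 held, and those of Derl1, Erp44, Pdia3, Sdf2l1, Sec61a1, Spcs2, Ssr1, Syvn1 and Txndc5 did not. Of 33 calls in IL-4 versus control, 30 held, and of 29 in IL-13 versus control, 27. The cause was not tested.

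Libraries with the same number did not deviate together (3 of 30 correlations over 0.1, from -0.28 to 0.16, with 2 of 15 libraries closest to their own number). A replicate block gave 25 genes higher in IL-4/IL-6 versus IL-4 and 23 in IL-13/IL-6 versus IL-13. Depth limits Derl3 and Hspa1a most, with as few as 3 and 2 counts in a library.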
